A study of Rattus norvegicus with 20 samples.

Results

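*Atf5* and 9 further genes of the integrated stress response were examined in the medial prefrontal cortex (mPFC) of rats that had stopped receiving lysergic acid diethylamide (LSD). The 10 genes, *Atf4*, *Atf5*, *Ddit3*, *Chac1*, *Trib3*, *Asns*, *Hspa5*, *Xbp1*, *Ddit4* and *Sesn2*, were taken by symbol from the 31038 genes of the deposited count matrix, and all 10 were listed there. They were selected on the measured decrease of *Atf5*, which was among the strongest in rats given LSD. By log2 fold change alone, *Atf5* stood at rank 113 among the 1418 genes called lower. Its own difference between the groups is therefore given as a description, without a test. Male Sprague-Dawley rats, 6 to 8 weeks old and 180 to 200 g in weight at the start, received LSD at 0.16 mg/kg or sterile saline by intraperitoneal injection every other day over 90 days, and the labels put the end of treatment 3 weeks before the profiles were taken. The study's methods name LSD tartrate, a somewhat higher starting age, a somewhat longer interval without drug, and dissection of the mPFC from 1 frozen hemisphere. One poly(A)-selected RNA library was sequenced from each of 10 LSD-treated and 10 saline-treated rats. Rats of both groups were kept in individual cages and injected on the same days.

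The integrated stress response is the pathway by which cells lower protein synthesis when amino acids run short, unfolded proteins fill the endoplasmic reticulum (ER), mitochondria fail or viruses enter. Kinases that sense these conditions phosphorylate the translation factor eIF2, which slows initiation at most mRNAs while upstream reading frames let the ribosome reach the coding sequences of *Atf4*, *Atf5* and *Ddit3*. These encode basic leucine zipper transcription factors that switch on genes for amino acid supply, protein folding, redox balance and, if stress persists, cell death. In the nervous system ATF5 is also known for its part in neural progenitors and in the maturation of olfactory sensory neurons, and in mitochondrial stress. RNA level therefore gives only a partial view of these factors, since a large share of their control lies in translation, which was not measured.

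Regulatory sequence was searched for 2 binding motifs, those of the amino acid response and of the ER stress response. The search covered the 250 bases before each gene's start in the RefSeq promoter table of the GRCr8 assembly. The counts were made on another assembly, rn6, and no position was carried between them. All 10 genes had a promoter entry. The core of the amino acid response element bound by ATF4 and its partners (TGATGNAA, either strand) was found before *Chac1* and *Trib3*, against 3.40% of all 33469 promoters in the table. The ER stress response element bound by ATF6 and XBP1 (CCAAT and CCACG with 9 bases between them, either strand) was found before *Hspa5* and *Xbp1*, against 0.0657% of all promoters. The 4 stretches of 60 bases are shown because they mark which genes carry a textbook motif of either response close to the start. They are written 5′ to 3′ along the gene's strand with the motif in capitals.
Chac1, chr3:126795944-126796003, plus strand: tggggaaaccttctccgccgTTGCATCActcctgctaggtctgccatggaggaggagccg
Trib3, chr3:161275534-161275593, minus strand: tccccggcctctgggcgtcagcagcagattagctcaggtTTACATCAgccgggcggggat
Hspa5, chr3:38452953-38453012, plus strand: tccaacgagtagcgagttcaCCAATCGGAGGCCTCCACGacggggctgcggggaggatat
Xbp1, chr14:84604538-84604597, plus strand: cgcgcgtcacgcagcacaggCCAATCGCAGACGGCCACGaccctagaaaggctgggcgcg
In *Chac1* and *Trib3* the core lies in reverse orientation, at bases -167 to -160 and -21 to -14 from the start, and in *Hspa5* and *Xbp1* the element lies at -43 to -25 and -65 to -47. The windows of the other 6 genes, *Atf5* among them, held neither run of letters. Sequence outside these 250 bases was not searched, so elements there would have been missed.

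The treated rats had 16346629 to 25552681 reads on genes, and the controls 11098076 to 24201351. Libraries also differed in how expression followed gene span, the distance from a gene's start to its end. The deviations of a library from the gene means, ranked over genes, correlated with span at a Spearman's rho of 0.0743 to 0.291 in treated rats and -0.434 to 0.113 in controls. Long genes thus tended to stand higher and short genes lower in the LSD libraries, though the ranges of rho overlapped. Most of the stress response genes are short. The spans of 8 of the 10 lie between 2059 and 5595 bases in GRCr8, and *Asns* and *Sesn2* span 17910 and 18952 bases. Values after a correction for span, under which 10.1% of all genes were called, are therefore given beside the results they move. The correction would also remove a treatment effect that follows span, and such an effect cannot be told apart here from a trend of the libraries. Marker genes of cortical excitatory neurons, including *Slc17a7* and *Camk2a*, summed to 3197 to 4925 normalised RPM (reads scaled to a common library size) over the 20 rats, and those of the choroid plexus to 0.890 to 4.83 RPM.

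*Atf5* was lower in the mPFC of treated rats, by 26.6%. It had 68.4 ± 8.28 RPM (SD, n = 10) in treated rats and 93.2 ± 10.4 RPM (SD, n = 10) in controls. Each rat contributed between 1007 and 2064 reads, so counting error was small beside the spread between rats. The treated rats ran from 49.8 over a median of 67.8 to 82.6 RPM, and the controls from 80.4 over a median of 94.4 to 112 RPM. All 10 treated rats lay below the control median and 9 of them below the lowest control, so the groups overlapped only through LSD rat 9, with 82.6 RPM, and the lowest controls. The log2 fold change was -0.45 (standard error, SE, 0.073). With any 1 rat left out, it was between -0.48 and -0.40. After the span correction the log2 fold change was -0.37 (SE 0.067), and it was -0.40 with scaling by total counts. In tissue made of many cell types, fewer cells that express *Atf5* and less *Atf5* RNA per cell cannot be told apart.

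**Figure D1:**
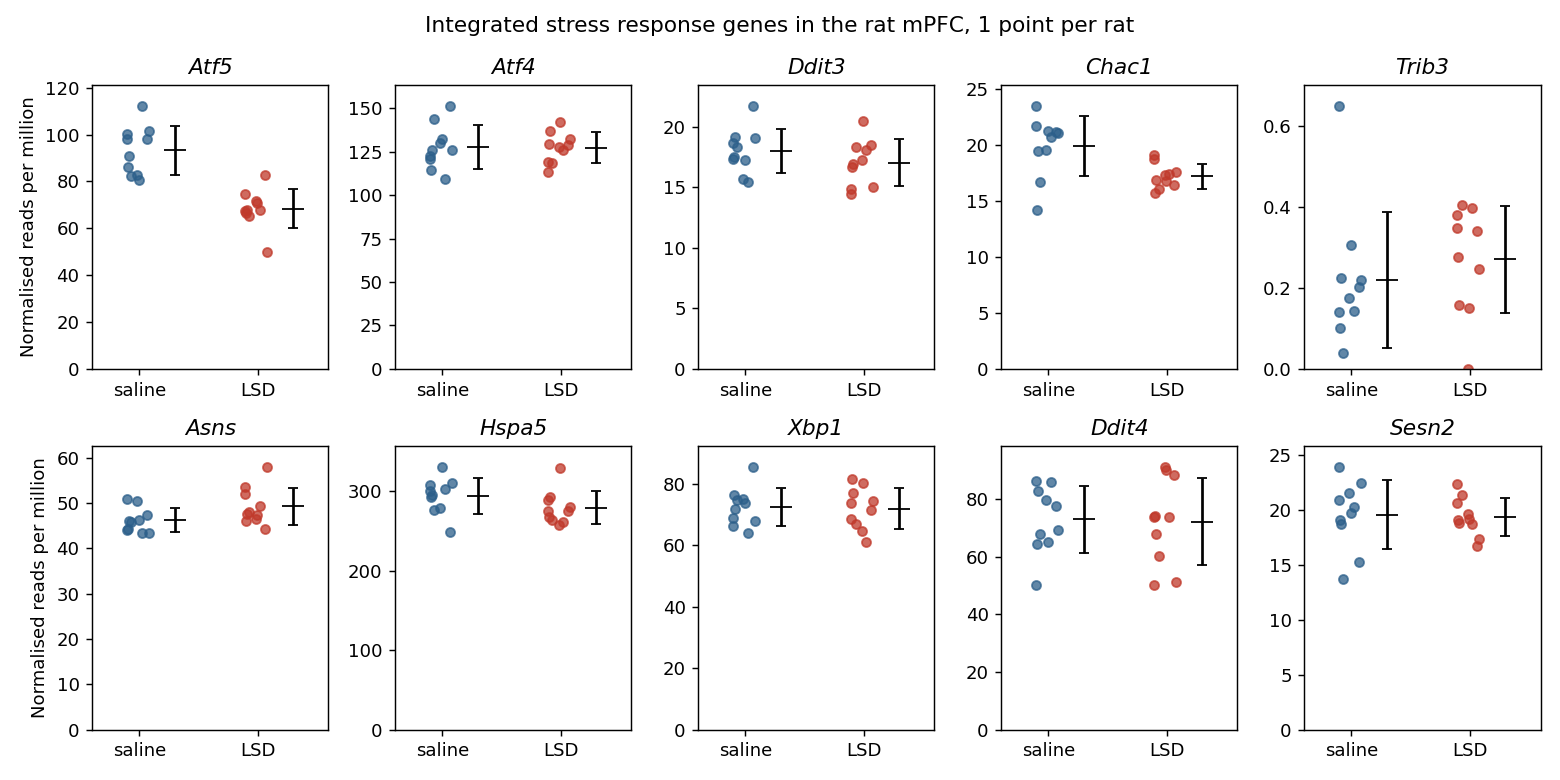
Normalised RPM of the 10 genes in each rat, on axes that start at 0 and differ between panels; points are rats (blue, 10 saline; red, 10 LSD), and the black bar is the mean with its SD. For *Atf5*, 9 of the 10 treated rats sit below the lowest control, whereas the 2 groups share most of their range for *Atf4*, *Xbp1*, *Ddit4* and *Sesn2*.

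In the GRCr8 annotation the span of *Atf5* overlaps those of *Nup62*, which encodes a nuclear pore protein, and *Il4i1*, which encodes an amino acid oxidase. The strand setting of the authors' counting is not given in the sources used here, so reads from overlapping exons on opposite strands may have been shared or dropped. *Nup62* had 42.6 ± 1.997 RPM (SD, n = 10) in treated rats and 49.3 ± 4.46 RPM (SD, n = 10) in controls, and it fell by 0.21 on the log2 scale (SE 0.051, p = 0.0118 after Benjamini-Hochberg adjustment, by the quasi-likelihood test of edgeR). *Il4i1* had 6.40 ± 0.739 RPM (SD, n = 10) and 7.33 ± 1.11 RPM (SD, n = 10), and its log2 fold change of -0.19 (SE 0.090) did not pass the threshold (adjusted p = 0.149 from the same test). The drop in *Nup62* was thus smaller than that in *Atf5* on the log2 scale, and what shared reads add to either was not tested. *Ddit3* overlaps *Mars*, a tRNA synthetase gene, in the same annotation.

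Of the 9 other genes, 8 reached 5 reads in 10 or more rats and were tested with all 16605 genes that met this limit, and *Trib3* did not. Only *Chac1* passed an adjusted p of 0.05, lower in treated rats, and none was higher. Over all genes tested, 8.54% were called lower and 6.48% higher, 15.0% in all, so 1 gene lower out of 8 is close to what the whole table gave. The 8 log2 fold changes lay between -0.21 and 0.09, with a median of -0.01 beside a median of 0.00 over all genes, and 7 of the 8 were below 0. These signs were unstable where the values were small: with scaling by total counts or after the span correction *Atf4*, *Xbp1*, *Ddit4* and *Sesn2* turned to above 0.

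*Atf4*, the central transcription factor of the pathway and the closest relative of *Atf5*, had 128 ± 8.73 RPM (SD, n = 10) in treated rats and 128 ± 12.6 RPM (SD, n = 10) in controls. Its values ran from 113 over 128 to 142 RPM (lowest, median, highest) with LSD and from 110 over 126 to 151 RPM with saline, so the control range enclosed that of the treated rats. The log2 fold change was 0.00 (SE 0.056, 95% interval -0.11 to 0.11, adjusted p = 0.981, edgeR). The interval does not reach the -0.45 of *Atf5*, but *Atf5* was picked for its decrease. A difference between both genes was not tested. After the span correction, *Atf4* had a log2 fold difference of 0.08 (adjusted p = 0.363, edgeR).

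*Ddit3*, which encodes CHOP, the factor linked to stress-induced cell death, had 17.0 ± 1.90 RPM (SD, n = 10) in treated rats and 18.0 ± 1.82 RPM (SD, n = 10) in controls. It ran from 14.4 over 17.1 to 20.4 RPM with LSD and from 15.5 over 17.9 to 21.7 RPM with saline. The groups overlapped widely, with 3 treated rats under the lowest control and 1 control over the highest treated rat. Its log2 fold change of -0.08 (SE 0.071, 95% interval -0.22 to 0.06) did not pass the threshold (adjusted p = 0.487, edgeR), and it was 0.00 after the span correction.

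*Chac1*, a glutathione-degrading enzyme and a target of ATF4 and CHOP, had 17.2 ± 1.09 RPM (SD, n = 10) in treated rats and 19.98 ± 2.68 RPM (SD, n = 10) in controls. The treated rats ran from 15.7 over a median of 17.1 to 19.1 RPM, and the controls from 14.2 over a median of 20.9 to 23.5 RPM. All 10 treated rats were below the control median and 8 controls were above the highest treated rat, but the lowest value of all belonged to a control. *Chac1* fell by 0.21 on the log2 scale, or 13.7% (SE 0.072, adjusted p = 0.0486, edgeR). This call was at the edge of the threshold. It was lost after the span correction, where the log2 fold change was -0.13 (adjusted p = 0.225), and it was lost in 16 of the 20 fits that left out 1 rat, with adjusted p-values of at most 0.1003. The call held only without LSD rat 1 or 5 or without control 2 or 10, and it was strongest, with an adjusted p of 0.00610, without control 10.

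*Trib3*, a pseudokinase that holds ATF4 and AKT in check and is a textbook output of the pathway, was close to undetected. It had 0 to 8 reads per treated rat, 57 in all, and 1 to 7 reads per control, 33 in all. This corresponds to 0.270 ± 0.132 RPM (SD, n = 10) with LSD and 0.220 ± 0.167 RPM (SD, n = 10) with saline. The rat with 0 reads, LSD rat 6, allows a level of up to 0.168 RPM from 3 reads, by counting error alone. With no filter on low counts its log2 fold change was 0.41 (SE 0.39, adjusted p = 0.557, edgeR), an interval that covers changes in both directions. No difference in *Trib3* was detectable at this depth.

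*Asns*, asparagine synthetase, is the standard reporter of the amino acid response. It had 49.2 ± 4.14 RPM (SD, n = 10) in treated rats and 46.1 ± 2.65 RPM (SD, n = 10) in controls, running from 44.2 over 47.8 to 58.0 RPM and from 43.4 over 45.8 to 50.8 RPM. Of the treated rats, 9 were above the control median and 3 above the highest control, so this gene leaned opposite to *Atf5*. Its log2 fold change of 0.09 (SE 0.050, 95% interval -0.01 to 0.19) did not pass the threshold (adjusted p = 0.218, edgeR), nor did it with scaling by total counts (0.14, adjusted p = 0.0559) or after the span correction (0.11, adjusted p = 0.138).

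The ER stress response was represented by *Hspa5*, the chaperone BiP that holds the stress sensors inactive, and *Xbp1*, whose mRNA is spliced by the sensor IRE1. *Hspa5* had 279 ± 20.8 RPM (SD, n = 10) in treated rats and 294 ± 22.5 RPM (SD, n = 10) in controls. Its values ran from 258 over 275 to 329 RPM with LSD and from 248 over 298 to 331 RPM with saline. A single treated rat, number 7, was above the control median, yet both ranges were nearly the same. The log2 fold change was -0.08 (SE 0.052, 95% interval -0.18 to 0.03, adjusted p = 0.338, edgeR) and moved to 0.00 after the span correction. *Xbp1* had 72.0 ± 6.70 RPM (SD, n = 10) and 72.5 ± 6.21 RPM (SD, n = 10), with 5 treated rats on either side of the control median. It ran from 61.0 over 72.7 to 81.5 RPM with LSD and from 64.0 over 72.9 to 85.6 RPM with saline. Its log2 fold change was -0.01 (SE 0.058, 95% interval -0.12 to 0.10, adjusted p = 0.932, edgeR). Both genes that carry the ER stress response element thus failed to pass the threshold. The counts are summed per gene, so spliced and unspliced *Xbp1* were not separated.

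The last pair, *Ddit4* and *Sesn2*, encode REDD1 and sestrin 2, which restrain the growth kinase mTORC1 under stress. *Ddit4*, which glucocorticoids and low oxygen also induce, had the widest relative spread of the 9 well-detected members in treated rats. It had 72.0 ± 15.1 RPM (SD, n = 10) in treated rats and 72.9 ± 11.6 RPM (SD, n = 10) in controls, from 50.1 over 73.8 to 91.2 RPM and from 50.1 over 73.4 to 86.3 RPM. The SD was 20.9% of the mean with LSD and 15.8% with saline. In both groups rat 1 was the lowest. Its log2 fold change of -0.02 (SE 0.11, 95% interval -0.24 to 0.20) therefore came with the widest interval of the 8 tested genes (adjusted p = 0.945, edgeR). *Sesn2* had 19.4 ± 1.71 RPM (SD, n = 10) and 19.5 ± 3.12 RPM (SD, n = 10), from 16.7 over 19.1 to 22.3 RPM with LSD and from 13.7 over 19.97 to 23.9 RPM with saline. The control range again enclosed that of the treated rats, and the log2 fold change was -0.01 (SE 0.084, 95% interval -0.17 to 0.16, adjusted p = 0.961, edgeR).

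**Figure D2:**
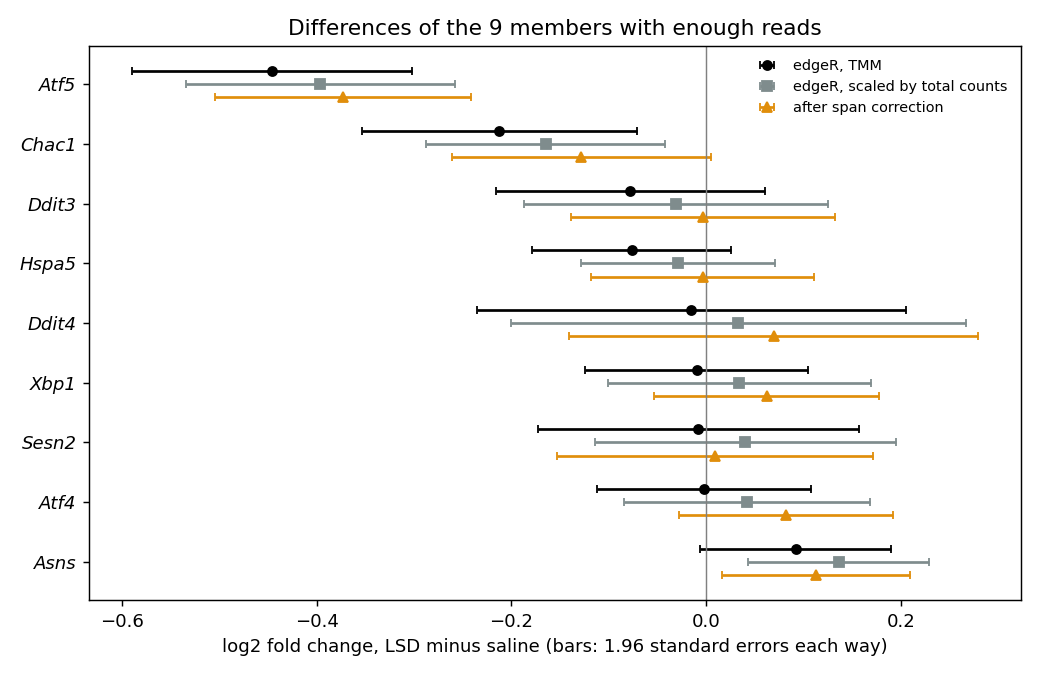
Log2 fold change, LSD minus saline, of the 9 genes with enough reads (*Trib3* is left out), from edgeR with TMM (black circles), with scaling by total counts (grey squares) and after the span correction (orange triangles); bars are 95% intervals. *Atf5*, picked for its decrease, stands farthest from 0 at -0.45, *Chac1* lies at -0.21, and the other 7 lie between -0.08 and 0.09.

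Whether rats with more *Atf5* also had more of the other genes was examined within the groups, which does not use the difference between LSD and saline. Group means of log2(RPM + 1) were removed, and 9 relations were computed over 20 rats, with permutation tests that shuffled rats within their group (100000 shuffles, two-sided) and Benjamini-Hochberg adjustment over the 9. None passed an adjusted p of 0.05 on TMM-normalised values with only the group means removed. *Asns* did with scaling by total counts and after the span correction. *Asns* and *Ddit4* did once the mean of rats with the same number was removed as well, as given below. With *Atf4*, Pearson's r was -0.26 (permutation p = 0.261, adjusted 0.469) and Spearman's rho -0.28 (permutation p = 0.252, adjusted 0.453). With *Chac1*, r was 0.28 (permutation p = 0.218, adjusted 0.469) and rho 0.39 (permutation p = 0.101, adjusted 0.423).

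The strongest of the 9 relations was an inverse one, with *Asns*. Pearson's r was -0.57 (permutation p = 0.0141, adjusted 0.127) and rho -0.39 (permutation p = 0.0965, adjusted 0.423), with r of -0.74 in treated rats and -0.29 in controls. Without LSD rat 3 and control 4, the rats farthest from the median of *Atf5*, r with *Asns* on TMM-normalised values was -0.21. On those values the relation thus rests largely on these rats. With scaling by total counts r with *Asns* was -0.79 (adjusted permutation p = 0.00189), and span-corrected values gave -0.65 (adjusted permutation p = 0.0489). Neither was computed again without LSD rat 3 and control 4. LSD rat 3 had both the lowest *Atf5* and the highest *Asns* of its group. *Ddit4* followed with r of 0.41 (permutation p = 0.0897, adjusted 0.404) and rho of 0.32 (permutation p = 0.172, adjusted 0.423), which fell to an r of 0.10 without those rats. The remaining 5 genes had r between -0.28 and 0.23 and adjusted permutation p-values of 0.469 to 0.937.

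By the same measure, the genes most like *Atf5* among the 16604 others included *Ilkap*, LOC103694460, *Zfp775* and *Nol3*. They were picked for a high r, so no p is given. Their r was computed on TMM-normalised values only and not again after the span correction. Whether trends across whole libraries, such as that with span, add to it was not tested. *Ilkap*, a protein phosphatase gene, had an r of 0.84 (rho 0.83) over the 20 rats, 0.76 in treated rats and 0.94 in controls, and 0.81 without LSD rat 3 and control 4. LOC103694460 had an r of 0.83 (rho 0.79), *Zfp775*, a zinc finger gene, of 0.76 (rho 0.72), and *Nol3*, a gene for an inhibitor of cell death, of 0.76 (rho 0.65). Without those rats r was 0.76 for LOC103694460, 0.59 for *Zfp775* and 0.54 for *Nol3*. Among the stress response genes with enough reads, the best placed was *Ddit4*, at rank 1307, and *Asns* was at rank 16268.

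The genes that vary with *Atf5* within groups did not all differ between them. *Ilkap* had 32.7 ± 2.41 RPM (SD, n = 10) in treated rats and 40.4 ± 3.76 RPM (SD, n = 10) in controls and fell by 0.30 on the log2 scale (SE 0.057, adjusted p = 0.00446, edgeR). The other 3 missed the threshold, at log2 fold changes of -0.27 for LOC103694460 (adjusted p = 0.1003), -0.17 for *Zfp775* (adjusted p = 0.0613) and -0.06 for *Nol3* (adjusted p = 0.615, edgeR).

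**Figure D3:**
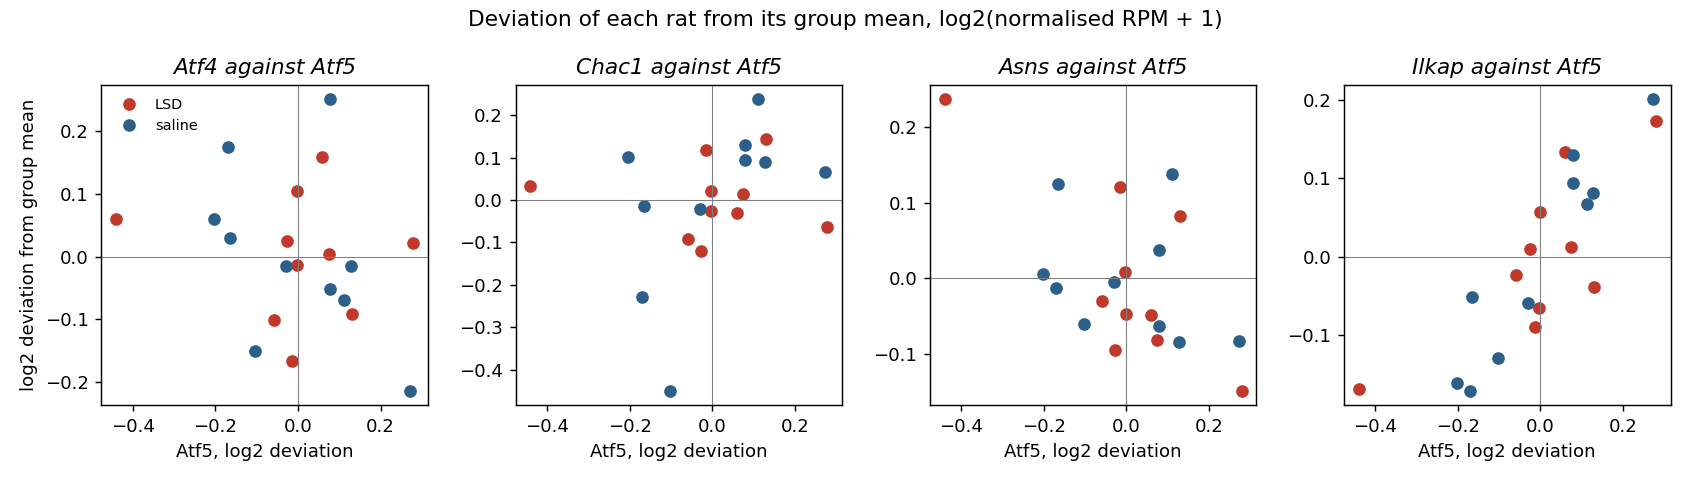
Deviation of each rat from its group mean in log2(RPM + 1), with *Atf5* on the horizontal axes and *Atf4*, *Chac1*, *Asns* or *Ilkap* on the vertical axes (red, LSD; blue, saline; 1 point per rat). *Ilkap* rises with *Atf5* in both groups (r = 0.84), *Atf4* and *Chac1* show no relation past the threshold, and LSD rat 3 sits alone at the upper left for *Asns*.

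To place *Atf5* in the rest of its pathway, 118 further genes were read from 8 lists arranged by role, of which 110 had enough reads. In treated rats 10 of the 110 were higher (9.09%, against 6.48% of all genes) and 12 lower (10.9%, against 8.54% of all genes), and 88 did not pass the threshold. The median log2 fold change was 0.00, as over all genes. After the span correction 7 were higher and 7 lower, against 3.41% and 6.73% of all genes. The shares of all genes, 6.48% higher and 8.54% lower, are also the background for the counts of each list below. Differences between the lists were not tested.

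Among the sensors and switches upstream of ATF4 and ATF5, 1 of 8 genes changed, of which 6 encode eIF2 kinases or phosphatase subunits and the others are *Impact* and *Oma1*. *Ppp1r15b*, the constitutive subunit that guides protein phosphatase 1 to eIF2 and so ends the response, rose from 36.7 ± 3.11 RPM (SD, n = 10) in controls to 44.8 ± 4.78 RPM (SD, n = 10) with LSD, a log2 fold change of 0.29 (SE 0.065, adjusted p = 0.00807, edgeR). Controls ran from 32.6 over 36.7 to 41.6 RPM and treated rats from 32.6 over 46.6 to 49.6 RPM, so 9 treated rats were above every control and 1, rat 1, was near the lowest. Its stress-inducible counterpart *Ppp1r15a* (GADD34) had a log2 fold difference of -0.14 (adjusted p = 0.456), and the 4 eIF2 kinase genes lay between -0.04 and 0.24 (adjusted p from 0.216 to 0.619, edgeR).

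A list of 9 genes covered eIF2 and its exchange factor eIF2B, which reloads eIF2 with GTP and is what phosphorylated eIF2 blocks. Of these 9 genes 3 were lower and none higher, beside 8.54% and 6.48% of all genes. All 3 encode eIF2B subunits. *Eif2b2* ran from 45.8 over 51.0 to 57.2 RPM in treated rats and from 51.6 over 63.1 to 72.0 RPM in controls, and it fell by 0.28 on the log2 scale (SE 0.061, adjusted p = 0.00755, edgeR). *Eif2b1* ran from 17.1 over 18.6 to 20.8 RPM and from 19.7 over 22.1 to 25.6 RPM and fell by 0.22 (SE 0.054, adjusted p = 0.0108, edgeR). For both genes 7 treated rats were below the lowest control. *Eif2b4* fell by 0.20 (SE 0.057, adjusted p = 0.0235, edgeR), but not past the threshold after the span correction (-0.13, adjusted p = 0.106). The other eIF2B genes, *Eif2b3* and *Eif2b5*, had log2 fold differences of 0.01 and -0.09 (adjusted p = 0.918 and 0.214, edgeR).

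The 15 tested genes for leucine zipper factors related to ATF4 and ATF5 or pairing with them held 2 higher and 2 lower genes. *Atf2* (0.23, adjusted p = 0.0173) and *Creb1* (0.29, adjusted p = 0.0408), which bind cAMP response elements, rose, and *Atf6b* (-0.15, adjusted p = 0.0416), an ER-anchored relative of ATF6, and *Cebpa* (-0.24, adjusted p = 0.0431, edgeR) fell on the log2 scale. After the span correction all 4 missed the threshold, with adjusted p-values from 0.0558 to 0.183, and *Cebpg* passed it (0.18, adjusted p = 0.0410, edgeR). *Atf3*, an early stress-induced partner, had the largest log2 fold change of the list, 0.68, but at 2.92 ± 2.07 RPM (SD, n = 10) against 1.87 ± 1.31 RPM (SD, n = 10) its SD was 70.9% of the mean with LSD and 70.2% with saline, and it did not pass the threshold (adjusted p = 0.272, edgeR).

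Among downstream genes, the list of amino acid synthesis and transport genes that ATF4 activates had 2 lower genes and none higher of 19, a share near that of all genes. *Slc6a9*, the glycine transporter GlyT1, fell by 0.34 on the log2 scale, from 95.2 ± 14.5 RPM (SD, n = 10) to 75.3 ± 7.67 RPM (SD, n = 10, SE 0.079, adjusted p = 0.00959, edgeR). *Cbs*, cystathionine beta-synthase, fell by 0.24 (SE 0.065, adjusted p = 0.0188, edgeR). Both genes have roles in astrocytes. Of 4 astrocyte markers none passed the threshold, at log2 fold changes from -0.17 to 0.13. Their sums were 1386 to 1921 RPM in treated rats and 1291 to 2097 RPM in controls. Whether astrocytes had a part in the lower *Slc6a9* and *Cbs* was not tested. *Phgdh* and *Psat1*, the first steps of serine synthesis, had log2 fold differences of -0.20 and -0.04 (adjusted p = 0.0866 and 0.801, edgeR). The 14 genes for tRNA synthetases and tRNA export held 2 higher genes, *Xpot* (0.18, adjusted p = 0.0189) and *Eprs* (0.16, adjusted p = 0.0488, edgeR), which the span correction took to adjusted p-values of 0.0529 and 0.237.

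Of 12 other stress outputs, *Eif4ebp1*, the translational repressor 4E-BP1, fell by 0.35 on the log2 scale (SE 0.099, adjusted p = 0.0205, edgeR), from 12.3 ± 2.30 RPM (SD, n = 10) in controls to 9.60 ± 1.14 RPM (SD, n = 10). *Sesn3*, a sestrin gene that FOXO factors control, rose from 269 ± 26.3 RPM (SD, n = 10) to 310 ± 18.2 RPM (SD, n = 10), with all 10 treated rats above the control median (log2 fold change 0.21, SE 0.056, adjusted p = 0.0183, edgeR). Of its relatives, *Sesn2* is described above, and *Sesn1* had a log2 fold difference of 0.01 (adjusted p = 0.957, edgeR). Differences between the sestrin genes were not tested.

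The ER list was split, with 3 genes higher and 3 lower of 22. *Calr*, calreticulin, a calcium-binding chaperone for glycoproteins, had the clearest separation. It ran from 395 over 423 to 465 RPM in treated rats and from 453 over 477 to 500 RPM in controls, with 9 treated rats below the lowest control, and it fell by 0.18 on the log2 scale (SE 0.038, adjusted p = 0.00757, edgeR). Its membrane-bound homologue *Canx*, calnexin, went the other way, from 342 ± 48.3 RPM (SD, n = 10) to 403 ± 29.4 RPM (SD, n = 10), a log2 fold change of 0.23 (SE 0.070, adjusted p = 0.0284, edgeR). *Dnajc3*, a BiP cochaperone also known as an inhibitor of eIF2 kinases, rose by 0.35 (adjusted p = 0.0165) and *Edem1*, which sends misfolded glycoproteins to degradation, by 0.20 (adjusted p = 0.0194, edgeR). *Sdf2l1* (-0.29, adjusted p = 0.0145) and *Derl1* (-0.13, adjusted p = 0.0494, edgeR) fell. After the span correction the 3 higher genes kept their calls (adjusted p from 0.0317 to 0.0490) and the 3 lower ones did not (adjusted p from 0.0596 to 0.0781).

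Mitochondrial chaperones and proteases, the genes of the stress response in which mammalian ATF5 has been implicated, held 1 higher and 1 lower gene of 11, with a median log2 fold change of -0.09. *Hspa9*, the chaperone mortalin, rose from 73.8 ± 6.53 RPM (SD, n = 10) to 83.8 ± 4.65 RPM (SD, n = 10), a log2 fold change of 0.18 (SE 0.051, adjusted p = 0.0209, edgeR). *Clpp*, the proteolytic subunit of the matrix protease ClpXP, fell from 63.6 ± 7.62 RPM (SD, n = 10) to 51.2 ± 7.81 RPM (SD, n = 10), by 0.31 on the log2 scale (SE 0.086, adjusted p = 0.0192, edgeR). *Hspd1*, *Hspe1* and *Lonp1*, which encode a chaperone, its cofactor and a protease of the matrix, had log2 fold differences of 0.10, 0.03 and -0.14 (adjusted p = 0.388, 0.877 and 0.0962, edgeR). *Hspa9* and *Clpp* kept their calls under the span correction, and *Trap1* was called lower as well (adjusted p = 0.0473, edgeR).

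**Figure D4:**
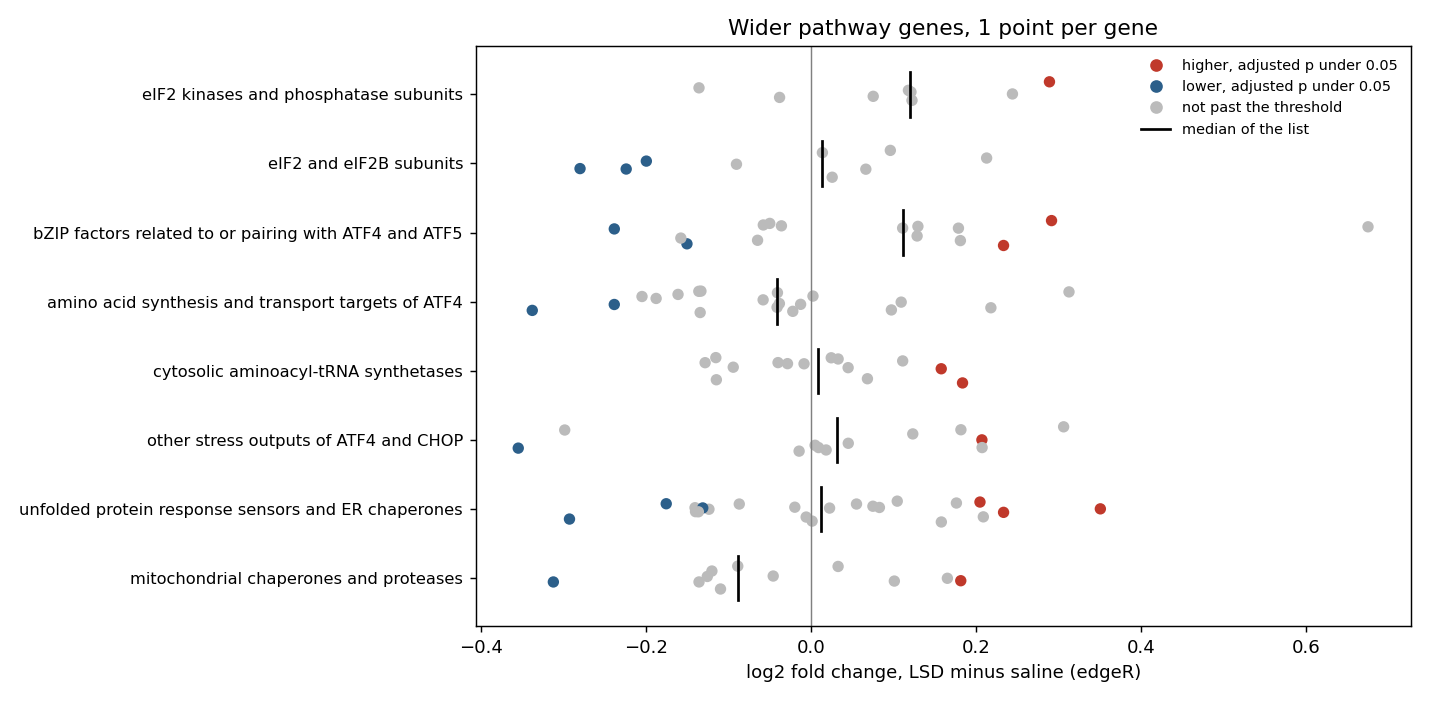
Log2 fold change, LSD minus saline, of 110 further pathway genes in 8 lists, 1 point per gene; red genes are higher and blue genes lower at an adjusted p under 0.05 (edgeR), grey genes did not pass, and the black line is the list's median. The 10 red and 12 blue genes are scattered over the lists, and the 3 called genes among the eIF2 and eIF2B subunits are all blue. Of all genes tested, 6.48% were higher and 8.54% lower.

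Markers of other cells were read beside these results. Of 30 markers in 9 lists 2 passed the threshold, beside 15.0% of all genes. Both mark inhibitory neurons, and they went in opposite directions: *Gad2* rose by 0.23 (adjusted p = 0.0369) and *Slc32a1* fell by 0.34 on the log2 scale (adjusted p = 0.0180, edgeR). Once corrected for span, *Gad2* missed the threshold (0.17, adjusted p = 0.0944) and *Slc32a1* kept its call (-0.26, adjusted p = 0.0455, edgeR), and *Gad2* passed in 9 of the 20 fits without 1 rat. The 4 oligodendrocyte markers summed to a median of 2926 RPM (1685 to 4401) in treated rats and 3623 RPM (1628 to 5767) in controls, and none passed. The 3 striatal markers *Drd2*, *Adora2a* and *Rgs9* had log2 fold changes from -1.06 to -0.80 without passing (adjusted p from 0.0671 to 0.0822, edgeR), with sums of 18.4 to 75.9 RPM in treated rats and 23.6 to 123 RPM in controls. With a block for rats of the same number, all 3 passed as lower, as given below. The part of any of these in the lower *Atf5* level was not tested.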

How the data were processed

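RNA from the mPFC of 20 rats, 10 per group by their labels, was sequenced with 1 library per rat. The deposited values are raw read counts per gene, which the authors obtained with HTSeq from HISAT2 alignments to rn6 after trimming by TrimGalore; versions, annotation and strand setting are not given in the sources used here. The 5 rows without a gene name, 25.5% to 29.0% of each library, were left out. The 16605 genes that reached 5 reads in 10 or more rats were tested with edgeR 4.0.16 in R 4.3.3 (quasi-likelihood test, TMM, Benjamini-Hochberg over all of them, threshold 0.05). The standard error is the log2 fold change divided by the square root of F, and 95% intervals use the normal approximation. RPM values are TMM-normalised. P-values set a difference or a correlation against the variation between rats. The edgeR step was checked on simulated counts.

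The span correction averaged each rat's deviation in log2(RPM + 1) over 50 bins of genes ordered by GRCr8 span (89.9% matched by symbol or synonym), smoothed it over 5 bins, centred it in each rat and used it as an offset. Alternatives were DESeq2 1.42.0, its size factors, total counts, other filters, equal depth, a replicate block and each rat left out. The genes and lists were chosen with earlier results of these data known. Named are the 10 members, up to 3 genes per list and direction with the smallest p-values among those past the threshold, and the 5 genes with the highest r to *Atf5*, of which 1 is not reported here. Genes that passed no threshold were added as examples, along with the genes overlapping *Atf5*, after their values were seen.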

Additional observations from a re-analysis of the deposited data

Results flagged for a closer look

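A sample that stands far from the others of its group was sought in 64 sets of 10 rats, from 32 genes, by the gap to its nearest neighbour as a share of the group's range; chance flags about 1 in 20 sets, and 5 were found. LSD rat 3 had 49.8 RPM of *Atf5*, against 65.2 RPM in the next LSD-treated rat (gap 0.468 of the range). Control 5 had 0.648 RPM of *Trib3*, against 0.304 RPM in the next control (gap 0.565), at single-digit reads. LSD rat 7 had 329 RPM of *Hspa5*, against 293 RPM (gap 0.505). LSD rat 9 had 62.0 RPM of *Atf2*, against 70.1 RPM (gap 0.523), and LSD rat 1 had 32.6 RPM of *Ppp1r15b*, against 42.5 RPM (gap 0.585).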

How the results depend on the processing

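*Atf5* kept its direction in the 9 alternatives (-0.45 to -0.37) and the 20 fits without 1 rat (-0.48 to -0.40). It was picked on this contrast in the same rats, so these fits give no separate support for its decrease. The single call among its pathway partners, *Chac1*, went to 0 calls with DESeq2 size factors, total counts, no filter, edgeR's own filter, the span correction with or without the replicate block, and equal depth, and to between 0 and 1 without 1 rat; no partner was called higher in any fit (0). Of the 22 wider pathway genes called, 10 passed in all 9 alternatives and 16 in all 20 fits without 1 rat; the others were weaker, not turned. The genes called numbered 7 to 15 higher and 9 to 17 lower without 1 rat, and the 12 lower became 7 after the span correction with or without the replicate block. Over all genes, 1076 were called higher and 1418 lower; total counts gave 1504 and 858, the span correction 567 and 1118, and no filter 960 and 836; the range without 1 rat was 663 to 1669 higher (663 without LSD rat 8, 705 without control 4, 1669 without control 2) and 957 to 1907 lower. The calls of *Derl1*, *Atf6b*, *Eprs*, *Cebpa* and *Creb1* were lost in 16, 15, 14, 12 and 12 of the 20 fits without 1 rat. *Canx* lost its call in 5, those without LSD rat 7 or 8 or control 3, 4 or 5 (adjusted p up to 0.0590, edgeR). Correlations with *Atf5* past the threshold rose from 0 to 1 with total counts (*Asns*, r = -0.79) and after the span correction (*Asns*, r = -0.65), and to 2 with the replicate block over 10 differences (*Asns*, r = -0.90; *Ddit4*, r = 0.80). Causes of these changes were not tested, except that fewer rats or genes entered some fits. Rats with the same number share only that number: 6 of 10 such pairs had a correlation over 0.1 (range -0.26 to 0.47), and 1 of 10 LSD-treated rats correlated best with its own number. The replicate block called 1355 genes higher and 1606 lower, and under it the striatal markers *Drd2*, *Adora2a* and *Rgs9* passed as lower (adjusted p = 0.0166, 0.0213 and 0.0467, edgeR), also together with the span correction (0.0147, 0.0287 and 0.0390). Of the 10 genes only *Trib3* had too few reads for the main fit, and *Chac1* narrowly lost its call at equal depth (adjusted p = 0.0528, edgeR).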
